A study of Capra hircus with 9 samples.

Results

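The miRNAs of the imprinted DLK1-DIO3 locus were examined by small RNA sequencing of mammary tissue from Laoshan dairy goats. Members were chosen by name, as known goat miRNAs whose number belongs to this locus in mammals and which reached a level of 0.5 CPM (counts scaled to equal library totals) or more in 3 or more libraries. Of 73 miRNAs with such a number in the count table, 61 passed this limit, out of 696 miRNAs that passed it and 1359 that were listed. The other 12 members reached at most 13 counts in any library, and 2 of them had no count at all. They were chi-miR-432-3p, chi-miR-329a-5p, chi-miR-543-5p, chi-miR-3958-5p, chi-miR-487b-5p, chi-miR-487a-5p, chi-miR-154a-5p, chi-miR-496-3p, chi-miR-496-5p, chi-miR-377, chi-miR-412-3p and chi-miR-410-5p.

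The tissue came from 9 untreated adult goats of the same breed, farm and parity, each killed at 1 of 3 stages. The stages were late gestation (LG, sampled 140 days after mating), late lactation (LL, sampled 240 days after birth) and the dry period (DP, sampled 300 days after birth). Each had 3 goats, and each goat gave 1 library. The labels give the tissue as mammary gland and also carry an entry for a mammary cell line, whereas the methods describe whole tissue of 1 side of the udder. In such bulk tissue, fewer cells of a type and less of a miRNA per cell cannot be told apart.

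In mammals, the DLK1-DIO3 region is imprinted, which means that each of its genes is active on the chromosome of 1 parent only. The protein-coding genes DLK1, RTL1 and DIO3 are read from the paternal copy. Long noncoding RNAs, which carry one of the largest miRNA clusters known, are read from the maternal copy. The miRNAs around miR-127 and miR-136 are made antisense to RTL1 and can direct cleavage of its transcript, and those from miR-379 to miR-410 are processed from the introns of another noncoding RNA. The cluster is known for high levels in placenta, embryo and brain, and the region is also where the callipyge mutation of sheep, which enlarges muscle, lies.

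All 73 listed members matched 1 hairpin gene each in the RefSeq annotation of the goat assembly ARS1.2, and all of these genes were on chromosome 21. The 61 tested members came from 43 hairpins between positions 65037152 and 65229058, a span of 191907 bp. DLK1 lay before them at 64899151 to 64907338 and DIO3 after them at 65752268 to 65754213. The hairpins fell into a front part of 6 hairpins with 9 members, at 65037152 to 65053834, and a rear part of 37 hairpins with 52 members, at 65165342 to 65229058, separated by 111507 bp without a member. In the front part, the 4 hairpins of miR-433, miR-127, miR-432 and miR-136, with 6 members, overlapped RTL1 (65048890 to 65053914). In the rear part, the miR-3955 hairpin overlapped an annotated long noncoding RNA. The other 38 hairpins overlapped no other annotated gene.

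Library totals ranged from 13672653 to 34378995 counts, so that the absence of counts leaves room for 0.0873 to 0.219 CPM, depending on the library (3 counts, counting error only, because reads amplified by PCR are not separate molecules when no molecular identifiers mark them). Levels are given as CPM after TMM scaling, edgeR's correction of library sizes for a few dominant miRNAs. Differentially expressed miRNAs (DE-miRNAs) were those with a Benjamini-Hochberg adjusted p under 0.05 over all 696 miRNAs in edgeR's quasi-likelihood test and an absolute log2 fold change above 1. With TMM, the median log2 fold change of all 696 miRNAs was 0.18 where DP was compared with LG, 0.12 where DP was compared with LL and 0.17 where LL was compared with LG. With library size only these medians were -0.02, 0.49 and -0.42 in the same order. The medians of the locus miRNAs are therefore also given relative to these. Epithelial marker miRNAs of the miR-200, miR-205 and miR-183 groups (8 of 8 tested, none at 0) summed to 34930 to 43020 CPM in LG and LL and to 14060 to 22390 CPM in DP. Of these 8 markers, 5 had their lowest stage mean in DP and 3 their highest.

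A few miRNAs carried most of the reads of the locus. Mean levels over the 9 libraries exceeded 1000 CPM for 2 members, lay between 100 and 1000 CPM for 7, between 10 and 100 CPM for 22 and between 1 and 10 CPM for 23, and were at or under 1 CPM for 7. The 10 most abundant members held 85.3% to 88.5% of the locus counts in every library. They were chi-miR-127-3p, chi-miR-379-5p, chi-miR-411a-5p, chi-miR-493-5p, chi-miR-3959-5p, chi-miR-493-3p, chi-miR-3958-3p, chi-miR-409-3p, chi-miR-494 and chi-miR-381.

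The most abundant of them, chi-miR-127-3p, is 1 of the 6 tested members whose hairpins overlap RTL1. It stood at 2457, 3463 and 3880 CPM in the LG libraries, at 1924, 1621 and 1936 CPM in the LL libraries and at 2542, 1638 and 1096 CPM in the DP libraries. Every LL library was below every LG library, and the DP libraries ranged from within LG to below LL. It made up 41.4% to 45.0% of the locus counts in LG, 33.5% to 39.1% in LL and 25.8% to 39.6% in DP. chi-miR-379-5p, from the hairpin that gives its name to the miR-379/miR-656 group, had 977, 1182 and 1405 CPM in the LG libraries, 742, 649 and 730 CPM in the LL libraries and 1992, 671 and 856 CPM in the DP libraries. Its neighbour chi-miR-411a-5p varied least among the 3 leading members, with a mean of 675 ± 99.5 CPM for LG, 590 ± 38.3 CPM for LL and 606 ± 260.0 CPM for DP (SD, n = 3).

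The library of DP replicate 1 stood apart from the others for these miRNAs. Summed over the 61 members, the level was 9844 CPM in DP replicate 1, against 4141 and 3862 CPM in the other DP libraries. It was 5930, 7831 and 8628 CPM in the LG libraries and 5349, 4835 and 4951 CPM in the LL libraries. DP replicate 1 was therefore above all other libraries, while the other DP libraries were below all of them. As a share of all counts, without TMM, the members took 1.15% of DP replicate 1, 0.385% and 0.395% of the other DP libraries, 0.680% to 1.11% of the LG libraries and 0.373% to 0.445% of the LL libraries. The front part summed to 4032 CPM in DP replicate 1 against 2214 and 1590 CPM in replicates 2 and 3, and the rear part to 5812 CPM against 1927 and 2272 CPM.

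**Figure D1:**
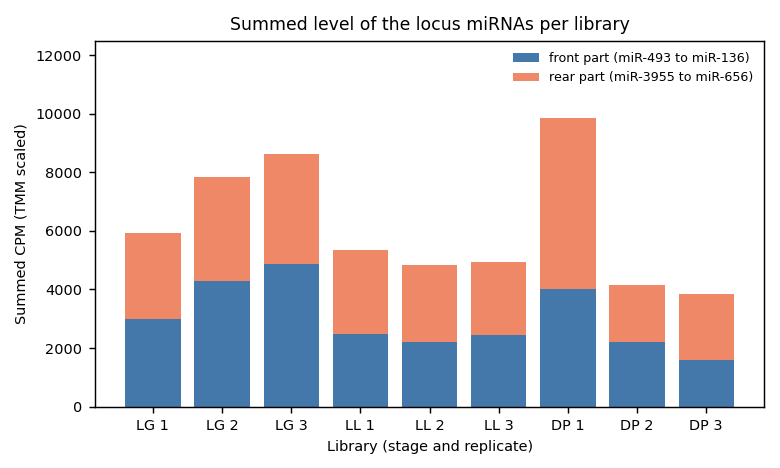
Summed CPM (TMM scaled, vertical axis) of the front part (blue) and the rear part (orange) in each library (horizontal axis). DP replicate 1 reaches 9844 CPM, whereas DP replicates 2 and 3 reach 4141 and 3862 CPM, below the LL libraries at 4835 to 5349 CPM and the LG libraries at 5930 to 8628 CPM.

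This held member by member. DP replicate 1 was the highest of the 9 libraries for 35 of the 61 members (57.4%), compared with 138 of all 696 miRNAs (19.8%), and the highest DP library for 53 members (86.9%), compared with 264 of 696 (37.9%). The ratio of DP replicate 1 to the mean of DP replicates 2 and 3, each with 0.5 CPM added, had a median of 2.47 over the members and 0.983 over all 696 miRNAs. It exceeded 2 for 39 of 61 members (63.9%) and for 94 of 696 miRNAs (13.5%), so that 39 of these 94 miRNAs were from this locus. Its median was 2.98 in the front part and 2.34 in the rear part. The highest ratio among all 696 miRNAs was that of chi-miR-3958-3p, at 12.2, and chi-miR-381 (7.19), chi-miR-376b-3p (5.52), chi-miR-136-5p (5.48), chi-miR-544-5p (5.37) and chi-miR-655 (4.92) came next within the locus. The ratio was below 1 for 5 members, which were chi-miR-154a-3p (0.598), chi-miR-154b-3p (0.619), chi-miR-543-3p (0.669), chi-miR-485-3p (0.760) and chi-miR-409-5p (0.991).

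chi-miR-3958-3p had 751 CPM in DP replicate 1 (11967 counts), but 50.5 and 71.3 CPM in DP replicates 2 and 3 (1099 and 1636 counts). It had 123, 182 and 143 CPM in the LG libraries and 140, 152 and 107 CPM in the LL libraries. LG and LL overlapped, DP replicate 1 was above both and the other DP libraries were below both. chi-miR-493-5p had 695, 357 and 228 CPM in the DP libraries, 155, 265 and 328.7 CPM in the LG libraries and 177, 241 and 155 CPM in the LL libraries. DP replicate 1 was the highest for chi-miR-493-5p too, but DP replicates 2 and 3 stayed within or above the range of the other stages. The median of the highest over the lowest library within DP was 2.74 for the members against 1.79 for all 696 miRNAs. In LL it was 1.38 against 1.46 and in LG 1.44 against 1.35.

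The sums of epithelial, immune and nerve marker miRNAs were highest in DP replicate 1 among the DP libraries. Those of red blood cell, muscle, fibroblast and smooth muscle, and endothelial markers were not. Red blood cell markers (3 of 4 listed were tested) summed to 122 CPM in DP replicate 1 against 1284 and 576 CPM in replicates 2 and 3. Muscle markers (6 of 8) summed to 971 CPM against 1072 and 3449 CPM, fibroblast and smooth muscle markers (12 of 12) to 86080 CPM against 123400 and 212400 CPM, and endothelial markers (2 of 2) to 19030 CPM against 31980 and 28310 CPM. Epithelial markers summed to 22390 CPM against 19980 and 14060 CPM, immune markers (7 of 8) to 3926 CPM against 3715 and 2212 CPM, and nerve markers (7 of 8) to 3826 CPM against 2206 and 2396 CPM. Among DP libraries, replicate 1 was highest for 6 of 8 epithelial, 3 of 7 immune and 3 of 7 nerve markers. It was also highest for 1 of 6 muscle markers. A muscle marker and a nerve marker were at 0 in every library. DP replicate 1 also had the smallest total count, and the part of cell makeup, of this animal or of depth in its levels was not tested. Since it was these same miRNAs that set DP replicate 1 apart, the values without it are given as a description beside the test of all libraries.

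**Figure D2:**
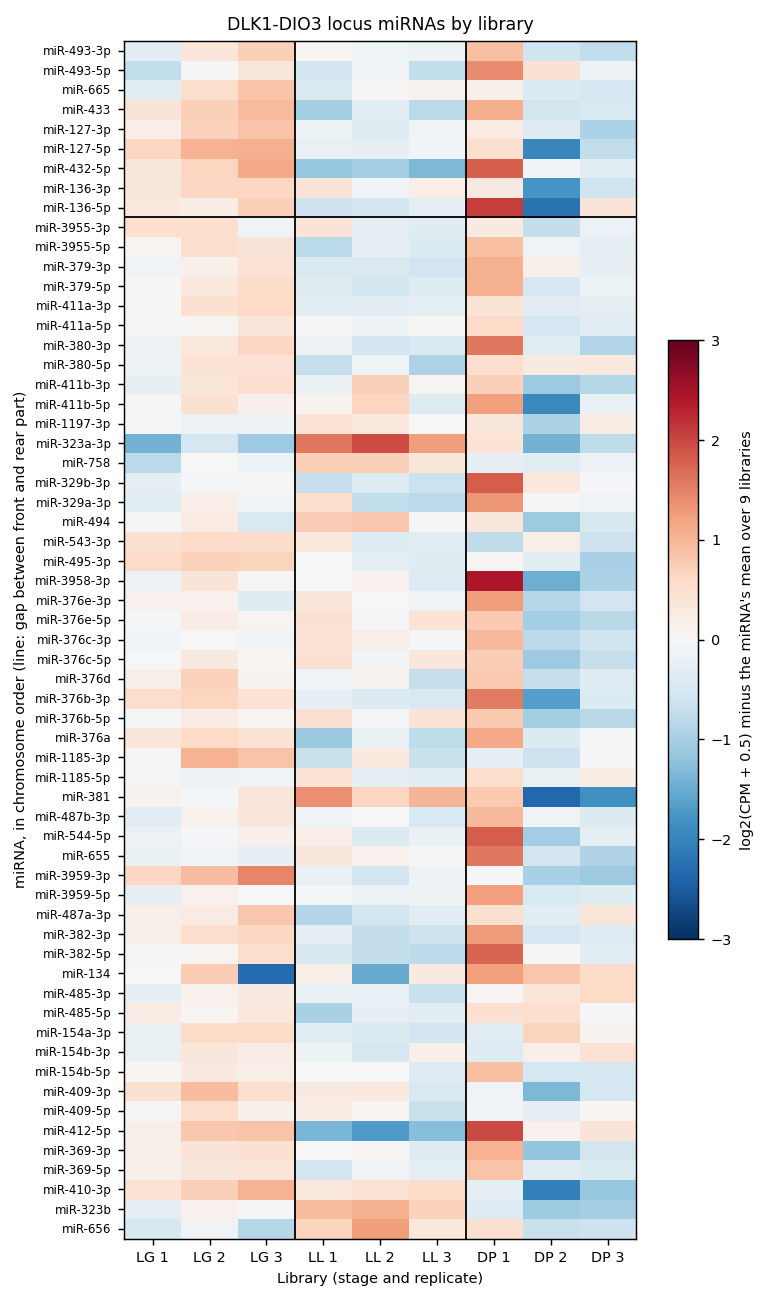
Level of each of the 61 tested miRNAs (rows, in chromosome order, with a line between the front and rear parts) in each of the 9 libraries (columns), as log2(CPM + 0.5) minus the miRNA's mean over the libraries. The column of DP replicate 1 is red for most rows, while DP replicates 2 and 3 are mostly blue, and chi-miR-323a-3p, chi-miR-323b and chi-miR-656 are red in LL.

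DP vs. LG compares the involuted gland with the gland before birth. Of the 61 members, 4 were DE-miRNAs and all 4 fell in DP, which is 6.56%. Among all 696 miRNAs, 31.5% were DE-miRNAs, 21.6% higher in DP and 9.91% lower, so the share of members that rose was below the background and the share that fell was near it. The median log2 fold change of the members was -0.08, or -0.26 relative to that of all miRNAs. It was -0.51 in the front part and -0.06 in the rear part. Epithelial markers summed to 34930 to 38650 CPM in LG against 14060 to 22390 CPM in DP, and the sums of muscle, fibroblast and smooth muscle, and endothelial markers were higher in every DP than in every LG library, on both scales. Of the 8 epithelial markers, 3 had their highest stage mean in DP, against the sum. The part of these markers in the results was not tested.

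All 4 DE-miRNAs lay in the rear part. chi-miR-410-3p, near the end of the locus, had 4.56, 5.65 and 7.32 CPM in the LG libraries and 2.57, 0.414 and 1.22 CPM in the DP libraries, where it had 41, 9 and 28 counts. The stages did not overlap, and its log2 fold change was -2.08 (SE 0.53, adjusted p = 0.0120, edgeR's quasi-likelihood test). chi-miR-3959-3p, the minor arm of the abundant miR-3959, had 14.4, 18.1 and 26.2 CPM in the LG libraries and 8.91, 4.41 and 4.06 CPM in the DP libraries. Again all DP libraries were below all LG libraries (log2 fold change -1.76, SE 0.39, adjusted p = 0.00554, edgeR). chi-miR-409-3p had 199, 278 and 201 CPM in the LG libraries and 135, 57.1 and 101 CPM in the DP libraries (log2 fold change -1.21, SE 0.34, adjusted p = 0.0184, edgeR). It was no longer called when LG replicate 2 was left out (adjusted p = 0.0539, edgeR). chi-miR-495-3p was even within LG, at 79.3, 86.6 and 84.4 CPM, and had 54.5, 42.4 and 26.9 CPM in the DP libraries (log2 fold change -1.02, SE 0.29, adjusted p = 0.0188, edgeR). The calls of chi-miR-410-3p, chi-miR-3959-3p and chi-miR-495-3p were kept whichever of the 9 libraries was left out, and without DP replicate 1 the log2 fold changes were -3.01, -2.39 and -1.45.

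Without DP replicate 1, 23 of 60 tested members were DE-miRNAs in DP vs. LG, all of them lower in DP, against 16.6% of 687 miRNAs called lower in the same fit. DP replicate 1 was singled out by the high levels of these members, so most of their DP values fall by construction without it. The gap to 16.6% is therefore a description and no test. The 23 count chi-miR-376b-5p, chi-miR-376c-5p and chi-miR-376e-5p as 3 calls, although their counts were equal or nearly so and they cannot be relied on as separate miRNAs. These 23 included the 4 above, and 7 of them were among the 9 members of the front part and 16 among 51 of the rear part. The members' median was -0.92, or -0.82 relative to that of all miRNAs, which itself moved to -0.10. The most abundant of the members called without this library, and in no other fit that left out 1 library, were chi-miR-493-3p, chi-miR-3958-3p, chi-miR-381 and chi-miR-136-3p. chi-miR-3958-3p turned from 0.96 (adjusted p = 0.403, edgeR) to -1.48. chi-miR-493-3p moved from -0.24 to -1.15 and chi-miR-136-3p from -1.02 to -1.81. With all 9 libraries, chi-miR-136-3p missed the limit in the fit reported (adjusted p = 0.0856, edgeR) but passed both limits with DESeq2, with limma-voom, with upper quartile scaling, with chi-miR-148a-3p left out before TMM or from the library size, with either other filter and with the replicate block (adjusted p of 0.0169 to 0.0467). chi-miR-127-3p had a log2 fold change of -0.89 with all libraries (SE 0.30, adjusted p = 0.0414, edgeR), just under the fold limit, and -1.44 without DP replicate 1, but it passed the limits in 7 of the 9 fits that left out 1 library. With no single library left out, it passed both limits in every alternative setting but limma-voom and the replicate block (log2 fold changes -1.73 to -1.07). With limma-voom and the replicate block its log2 fold changes were -0.96 and -0.94.

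**Figure D3:**
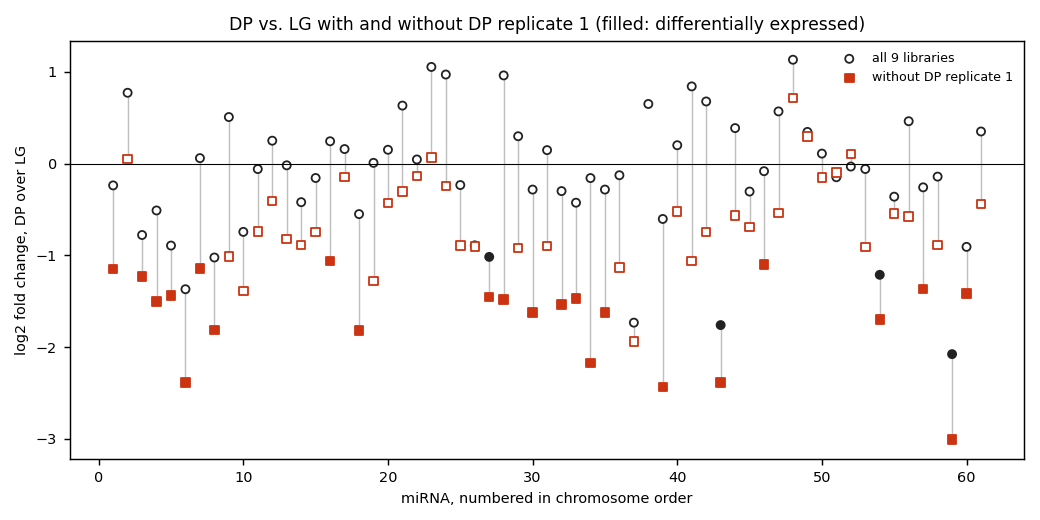
Log2 fold change of DP over LG (vertical axis) for the 61 tested miRNAs, numbered in chromosome order (horizontal axis), with all 9 libraries (circles) and without DP replicate 1 (squares, 60 miRNAs), joined by a line. Filled symbols are DE-miRNAs, 4 with all libraries and 23 without DP replicate 1, and nearly all squares lie below their circles.

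The study reports chi-miR-381 as significantly lower in DP than in LG, from a set that also held libraries of early and peak lactation. Here it had 60.8, 53.9 and 72.6 CPM in the LG libraries, 147.8, 88.1 and 115 CPM in the LL libraries and 97.3, 10.7 and 15.5 CPM in the DP libraries. All LL libraries were above all LG libraries. The DP libraries fell on both sides, replicate 1 above LG and replicates 2 and 3 far below it. Against LG, its log2 fold change in DP was -0.60 (SE 0.67, adjusted p = 0.550, edgeR) and without DP replicate 1 it was -2.44 (adjusted p = 0.000575, edgeR). For DP vs. LL the values were -1.51 (SE 0.68, adjusted p = 0.122, edgeR) and, without DP replicate 1, -3.28, past both limits. With all libraries it also passed the limits in DP vs. LL with limma-voom (log2 fold change -2.20, adjusted p = 0.0254) and with the replicate block (-1.99, adjusted p = 0.0314, edgeR). Relative to chi-miR-379-5p of the same cluster, a ratio of counts that no scaling changes, it stood at 0.136 to 0.199 in LL, 0.0456 to 0.0622 in LG, 0.0488 in DP replicate 1 and 0.0160 and 0.0181 in DP replicates 2 and 3. On this scale DP replicate 1 was within the range of LG.

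DP vs. LL compares the dry gland with the gland still giving milk. Here 8 of 61 members were DE-miRNAs, 5 higher and 3 lower in DP, against 26.7% of all 696 miRNAs called, 15.1% higher and 11.6% lower. The members' median log2 fold change was 0.28, or 0.15 relative to all miRNAs. With 8.20% of members higher and 4.92% lower, both shares were below those of all miRNAs. Marker sums differed between these stages too. Immune markers summed to 8361 to 31570 CPM in LL against 2212 to 3926 CPM in DP, epithelial markers to 35330 to 43020 CPM against 14060 to 22390 CPM, and muscle markers to 722 to 933 CPM against 971 to 3449 CPM. None of these sums overlapped, with TMM or with library size only. Single markers did not all follow them. The highest stage mean was in DP for 3 of 7 immune and 3 of 8 epithelial markers, and in LL for 2 of 6 muscle markers. The part of these markers in the levels of the locus miRNAs was not tested.

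The 5 that rose were chi-miR-412-5p, chi-miR-432-5p, chi-miR-380-5p, chi-miR-329b-3p and chi-miR-382-5p. chi-miR-412-5p had 26.3, 6.85 and 8.37 CPM in the DP libraries against 2.12, 1.59 and 2.27 CPM in the LL libraries. All DP libraries were above all LL libraries (log2 fold change 2.79, SE 0.53, adjusted p = 0.00331, edgeR), and it kept the call in every fit that left out 1 library, with 1.81 without DP replicate 1. chi-miR-432-5p, antisense to RTL1, had 81.9, 21.9 and 18.1 CPM in the DP libraries against 10.2, 11.2 and 8.75 CPM in the LL libraries (log2 fold change 2.01, SE 0.53, adjusted p = 0.0166, edgeR). Without DP replicate 1 its log2 fold change was 0.87, under the limit. chi-miR-382-5p had 155, 47.2 and 36.2 CPM in the DP libraries against 32.8, 28.0 and 26.4 CPM in the LL libraries (log2 fold change 1.45, SE 0.49, adjusted p = 0.0441, edgeR). chi-miR-329b-3p had 66.2, 23.2 and 17.7 CPM in the DP libraries against 11.2, 14.1 and 11.7 CPM in the LL libraries (log2 fold change 1.53, SE 0.45, adjusted p = 0.0270, edgeR). In these 3 miRNAs the DP libraries were all above the LL libraries, and furthest above in replicate 1. Without DP replicate 1, chi-miR-382-5p moved from a log2 fold change of 1.45 to 0.40 and chi-miR-329b-3p from 1.53 to 0.61, and neither was called. chi-miR-382-5p also lost its call without LL replicate 1, 2 or 3 or LG replicate 2, and chi-miR-329b-3p without LL replicate 1, 2 or 3, with log2 fold changes of 1.26 to 1.55 and 1.39 to 1.54 in those fits. With all libraries, both also missed the limits with limma-voom (adjusted p = 0.114 and 0.0565), with the replicate block (0.0675 and 0.0518, edgeR), with only the 2 stages compared (0.0987 and 0.0697, edgeR) and with library size without chi-miR-148a-3p (0.211 and 0.152, edgeR). chi-miR-382-5p missed them as well with chi-miR-148a-3p left out before TMM (0.0638, edgeR) and with at least 10 counts in every library (0.0579, edgeR). chi-miR-380-5p (log2 fold change 1.93, SE 0.64, adjusted p = 0.0441, edgeR) rested on 16 to 18 counts per DP library. In the LL libraries it had 2, 7 and 1 counts, close to the 3 counts that absence leaves room for. It lost its call in 7 of 9 fits that left out 1 library. Among other settings, it missed the limits with chi-miR-148a-3p left out before TMM, without a filter and with only the 2 stages compared (adjusted p = 0.0634, 0.0666 and 0.101, edgeR).

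The 3 that fell were chi-miR-323a-3p, chi-miR-323b and chi-miR-410-3p. chi-miR-323b had 6.67, 7.47 and 5.67 CPM in the LL libraries and 2.39, 1.29 and 1.40 CPM in the DP libraries (log2 fold change -1.97, SE 0.36, adjusted p = 0.00257, edgeR). chi-miR-323a-3p had 19.4, 24.9 and 15.3 CPM in the LL libraries and 8.22, 1.98 and 3.36 CPM in the DP libraries (log2 fold change -2.14, SE 0.52, adjusted p = 0.0107, edgeR). Neither overlapped between the stages, and both calls were kept whichever library was left out, with -2.41 for chi-miR-323b and -3.01 for chi-miR-323a-3p without DP replicate 1. chi-miR-410-3p had 4.24, 4.56 and 5.02 CPM in the LL libraries, a log2 fold change of -1.73 in DP vs. LL (SE 0.53, adjusted p = 0.0323, edgeR), and lost the call without LL replicate 1, 2 or 3 or DP replicate 3 (log2 fold changes of -2.60 to -1.29 over the 9 fits). It also missed the limits with library size only and with only the 2 stages compared (adjusted p = 0.114 and 0.0541, edgeR).

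Without DP replicate 1, 18 of 60 members were called in DP vs. LL, 1 higher (12.2% of 687 miRNAs in that fit) and 17 lower (15.7%). As in DP vs. LG, most members' DP values fall by construction here, so this is a description and no test. The 17 again count chi-miR-376b-5p, chi-miR-376c-5p and chi-miR-376e-5p separately. Only chi-miR-412-5p remained higher. Of the 8 calls with all libraries, 4 remained and 14 others were added. The most abundant of those added, chi-miR-3958-3p, went from a log2 fold change of 1.13 to -1.25. chi-miR-494 went from -0.84 to -1.43 and chi-miR-409-3p from -0.65 to -1.08. With all libraries these last 2 also passed the limits with library size without chi-miR-148a-3p (log2 fold changes -1.40 and -1.22, adjusted p = 0.0413 and 0.0438, edgeR). The members' median went from 0.28 to -0.53, or -0.44 relative to all miRNAs, so the direction of the group as a whole turned with 1 library.

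In LL vs. LG the DP libraries enter through the shared estimate of spread, the scaling and the filter that sets which miRNAs are tested. Most members had lower levels in LL. The LG mean was above the LL mean for 46 of 61 members (75.4%), compared with 41.4% of all 696 miRNAs, and every LL library was below every LG library for 26 members (42.6%), compared with 17.4% of all 696 miRNAs. The median log2 fold change was -0.48, or -0.65 relative to all miRNAs, and with library size only it was -1.05, or -0.63 relative to all miRNAs. The median of the front part was -0.84 and that of the rear part -0.42. In LL and LG the summed level did not overlap. Several marker sums also did not overlap between these stages with TMM scaling and were higher in LL. Immune markers summed to 8361 to 31570 CPM in LL against 1263 to 5618 CPM in LG, and fibroblast and smooth muscle markers to 92080 to 145900 CPM against 68090 to 76000 CPM. Red blood cell markers summed to 365 to 551 CPM against 87.1 to 168 CPM, muscle markers to 722 to 933 CPM against 419.5 to 531 CPM and nerve markers to 2990 to 5279 CPM against 1595 to 2745 CPM. Against these sums, LG means were above LL means for 3 of 7 nerve markers and 1 of 6 muscle markers. The same was true of 1 of 12 fibroblast and smooth muscle markers. With library size only, the stages overlapped in each of these sums except that of the red blood cell markers. On that scale the epithelial and endothelial sums did not overlap and were lower in LL, as the locus was, at 26590 to 39580 CPM in LL against 41530 to 48710 CPM in LG for epithelium and 11810 to 17300 CPM against 17500 to 21000 CPM for endothelium. With TMM scaling both overlapped. Their part in the levels of the locus miRNAs was not tested.

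Single members rarely passed both limits. 4 of 61 were DE-miRNAs, 1 higher and 3 lower in LL, against 12.8% of all 696 miRNAs, 8.91% higher and 3.88% lower. Without DP replicate 1 there were 10 of 60, 2 higher (11.1% of 687 miRNAs in that fit) and 8 lower (7.13%), including all 4. The most abundant of the 6 added were chi-miR-382-3p, chi-miR-127-5p, chi-miR-433 and chi-miR-656. With all libraries, the log2 fold changes of the last 3 were -1.13, -1.54 and 1.46. Among the fits that left out 1 library, chi-miR-127-5p was also called without DP replicate 2, and chi-miR-433 without DP replicate 2 or 3. Calls under the other settings are not listed for these members. The share of members called lower with all libraries was 4.92%. It was 24.6% in a fit of LL and LG only, where 10.9% of all miRNAs were called lower.

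**Figure D4:**
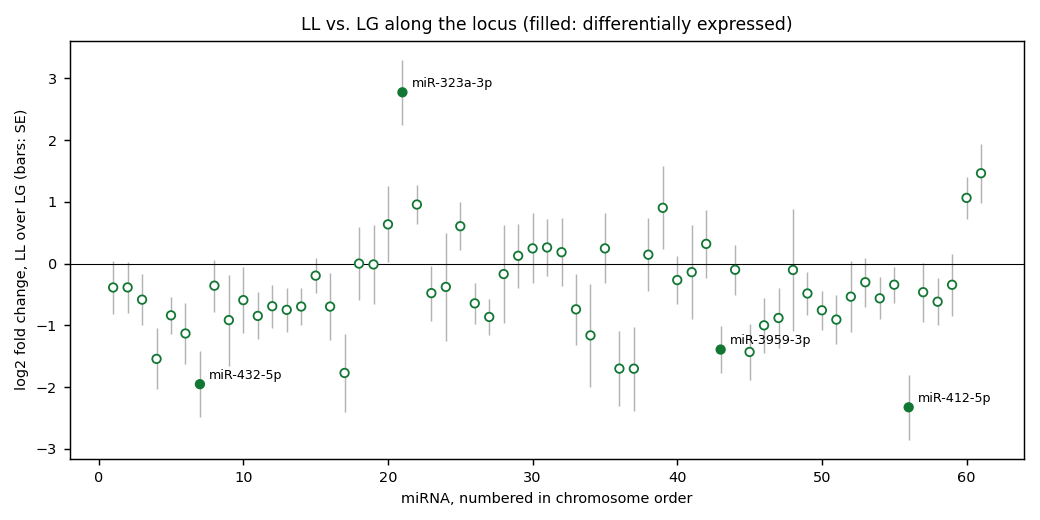
Log2 fold change of LL over LG (vertical axis, bars show the SE) for the 61 tested miRNAs, numbered in chromosome order (horizontal axis). Most points lie below 0, the 4 filled points are the DE-miRNAs, and chi-miR-323a-3p at 2.77 stands highest.

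chi-miR-323a-3p was the DE-miRNA that rose in LL. It had 1.96, 4.15 and 2.61 CPM in the LG libraries against 19.4, 24.9 and 15.3 CPM in the LL libraries, with no overlap (log2 fold change 2.77, SE 0.53, adjusted p = 0.00773, edgeR). The call was kept in all 9 fits that left out 1 library, with log2 fold changes of 2.38 to 2.95. Its hairpin lies among 10 hairpins from miR-379 to miR-494 within 7915 bp. Its counts relative to those of chi-miR-379-5p were 0.0209 to 0.0384 in LL, 0.00186 to 0.00351 in LG and 0.00295 to 0.00413 in DP, so that the LL libraries stood above all others on a scale without normalization. As a share of the locus counts its mean was 0.395% in LL and 0.0387% in LG, a ratio of 10.2, the largest such ratio of all 61 members.

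The 3 that fell in LL were chi-miR-412-5p, chi-miR-432-5p and chi-miR-3959-3p. chi-miR-412-5p had 7.03, 11.3 and 11.7 CPM in the LG libraries against the 1.59 to 2.27 CPM of LL given above (log2 fold change -2.33, SE 0.52, adjusted p = 0.0132, edgeR). It missed the threshold without LL replicate 2 (adjusted p = 0.0516, edgeR). chi-miR-432-5p had 29.6, 36.3 and 51.0 CPM in the LG libraries and thus no overlap with LL (log2 fold change -1.95, SE 0.53, adjusted p = 0.0346, edgeR). chi-miR-3959-3p had 8.00, 6.14 and 8.21 CPM in the LL libraries, below all LG libraries (log2 fold change -1.39, SE 0.38, adjusted p = 0.0352, edgeR). Both of these lost the call without LL replicate 1, 2 or 3 or LG replicate 3, with adjusted p values of up to 0.0646 and 0.0796 in edgeR. Their log2 fold changes stayed between -2.28 and -1.92 and between -1.74 and -1.34.

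Neighbouring hairpins differed in their pattern over the stages. The last 6 hairpins, miR-409, miR-412, miR-369, miR-410, miR-323b and miR-656, lie within 1503 bp, and chi-miR-412-5p had its lowest levels in LL whereas chi-miR-323b and chi-miR-656, the last in the locus, had their highest means there. In LG, chi-miR-323b had 2.64, 3.67 and 3.15 CPM, below all LL libraries, but neither it nor chi-miR-656 was a DE-miRNA of LL vs. LG in the edgeR fit reported. chi-miR-656, named here after its values were seen, had 4.47, 6.94 and 3.40 CPM in the LL libraries, 1.75, 2.41 and 1.22 CPM in the LG libraries and 3.89, 1.47 and 1.53 CPM in the DP libraries. The counts of chi-miR-323b per count of chi-miR-412-5p, a pair also chosen after seeing the values, were 3.15, 4.71 and 2.50 in LL, 0.376, 0.325 and 0.268 in LG and 0.0907, 0.188 and 0.167 in DP. Here the 3 stages did not overlap, and DP replicate 1 lay beside the other DP libraries.

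chi-miR-494 was among the abundant members with a high share in LL. It had 244, 258 and 140 CPM in the LL libraries, 141, 175 and 106 CPM in the LG libraries and 186, 68.3 and 104 CPM in the DP libraries, and LL and LG overlapped in CPM. Its share of the locus counts was 2.82% to 5.33% in LL and 1.23% to 2.38% in LG, without overlap. chi-miR-543-3p, which the study places in a network with the estrogen receptor gene ESR1 and which is named here for that reason, had 40.6, 43.4 and 42.9 CPM in the LG libraries, 36.3, 22.2 and 22.8 CPM in the LL libraries and 17.0, 32.8 and 18.6 CPM in the DP libraries. Every library of LL and DP was below every LG library, DP replicate 1 was the lowest of all 9, and it was no DE-miRNA in the 3 comparisons.

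The 5 hairpins of the miR-376 family, whose transcripts are known targets of A-to-I RNA editing in other mammals, lie within 1592 bp and gave 8 tested members. Their levels were between 0.184 and 23.7 CPM. chi-miR-376b-5p and chi-miR-376e-5p had the same count in each of the 9 libraries (14 to 86 counts), and chi-miR-376c-5p differed from them by 0 to 6 counts, so these 3 cannot be relied on as separate miRNAs. For chi-miR-376b-3p, the member of the family that varied most within DP, the DP libraries stood at 5.90, 0.184 and 1.13 CPM, against 2.64, 2.88 and 2.40 CPM in the LG libraries.

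A miRNA hairpin can yield a mature miRNA from its 5p and its 3p arm, and the share of each arm is independent of library scaling. Both arms were tested for 18 hairpins. The 5p arm held most counts in all 9 libraries for 7 of them and the 3p arm for 6, and the major arm changed between libraries for 5. These were miR-493, miR-136, miR-382, miR-1185, which had as few as 7 counts in a library, and miR-376b, whose major arm cannot be read because its 5p counts equal those of chi-miR-376e-5p. The hairpins of the 3 most abundant members were strongly one-sided, with 96.0% to 97.8% of counts on the 5p arm for miR-379, 95.0% to 96.9% for miR-411a and 0.411% to 1.75% for miR-127.

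The arm shares of miR-493 set DP apart from the other stages. Its 5p share was 60.1%, 68.9% and 60.7% in DP, 44.3%, 46.1% and 44.9% in LG and 41.3%, 51.9% and 41.4% in LL. All DP libraries, replicate 1 included, were above all others, with 5460 to 32295 counts on both arms together. miR-409 had 28.8%, 45.9% and 37.8% on the 5p arm in DP, 23.1%, 23.5% and 24.6% in LG and 28.1%, 25.6% and 25.7% in LL, so that DP was highest and the 3p arm led throughout. miR-382 had 60.9%, 62.6% and 53.9% in DP, 49.1%, 45.5% and 51.6% in LG and 49.8%, 53.3% and 50.1% in LL, again with DP above the rest. miR-136 did not follow the stage, as its 5p share was 62.1%, 24.7% and 48.4% in DP, 31.2%, 25.9% and 33.3% in LG and 18.8%, 24.8% and 24.9% in LL. miR-3959 had 94.1%, 94.2% and 91.2% on the 5p arm in LG and 96.7% to 98.6% in LL and DP, with LG below all others. The shares are given without a test.

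**Figure D5:**
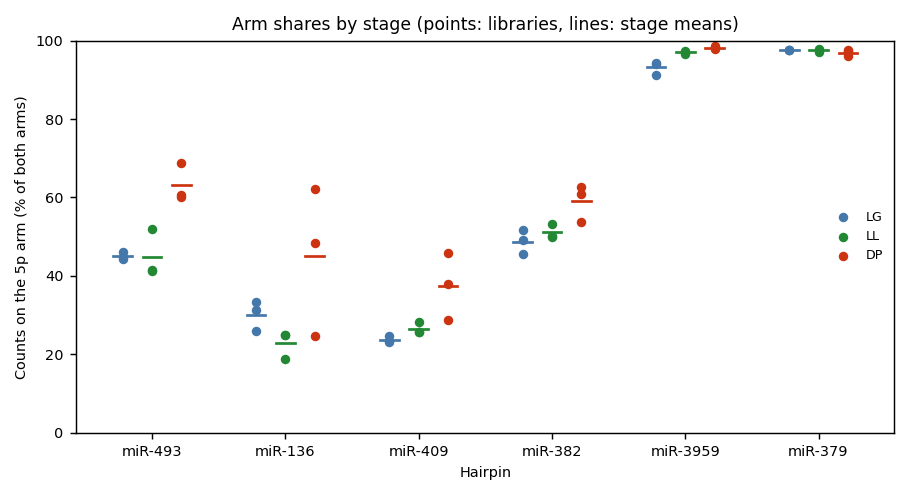
Share of counts on the 5p arm (vertical axis, percent of the counts of both arms) for 6 hairpins (horizontal axis) in LG, LL and DP. Points are libraries and short lines are stage means, and the DP points of miR-493 (60.1% to 68.9%) lie above those of LG and LL, whereas miR-379 stays at 96.0% to 97.8% in every stage.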

How the data were processed

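Small RNA of 9 mammary gland libraries was sequenced. After adapter removal, the authors mapped reads to the goat genome by miRDeep2, joined its predicted miRNAs to the known miRBase set and deposited raw counts of reads per mature miRNA. The submitters' notes also name FastQC 0.11.9, cutadapt 4.2 and Bowtie 1.1.1. In the deposited column of LL replicate 3, 2 predicted miRNAs outside the locus had values that were not whole, and these expected counts were rounded.

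The fit covered the 696 miRNAs that reached 0.5 CPM in 3 or more libraries and used edgeR 4.0.16 (glmQLFit and glmQLFTest, TMM) in R 4.3.3, with the stage as the only term and all 9 libraries. P-values were adjusted by the Benjamini-Hochberg method over all of them. The SE is the size of the log2 fold change over the root of its F statistic. Other tools were limma-voom (limma 3.58.1) and DESeq2 1.42.0. Other scalings were library size only, upper quartile, and TMM after removing chi-miR-148a-3p. Other filters were none and a minimum of 10 counts per library. Fits of the compared stages alone, with a replicate block, and omitting single libraries were also made. Library size without chi-miR-148a-3p was added after seeing the data. The code was tested on simulated data. Positions are those of RefSeq on ARS1.2.

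The members, the marker lists and the tests were chosen with earlier results of these data known. The miRNAs named are the 10 most abundant members, per comparison up to 5 DE-miRNAs with the largest rise and 5 with the largest fall, members with both arms, chi-miR-381, and up to 4 examples of calls that depend on 1 library. Other members named were chosen after their values were seen.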

Additional observations from a re-analysis of the deposited data

How the results depend on the processing

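The count of DE-miRNAs among the members of DP vs. LG was 4, and it was 10 with DESeq2, 10 with upper quartile scaling, 10 with chi-miR-148a-3p left out before TMM, 10 without a filter, 9 with at least 10 counts in every library and 14 with library size without chi-miR-148a-3p (added after seeing the data), all lower in DP. The corresponding shares were 16.4%, 16.4%, 16.4%, 16.4%, 18.4% and 23.0% of members called lower, beside 14.2%, 13.1%, 14.4%, 8.37%, 14.5% and 27.9% of all miRNAs. It ranged from 4 to 23 when single libraries were left out, beside 22.2% to 36.1% of all miRNAs. The count of DP vs. LL was 8 (5 higher, 3 lower), and it was 13 with library size only (11 higher, 2 lower), 4 with only the 2 stages compared, 3 higher and 4 lower with chi-miR-148a-3p left out before TMM, 1 higher and 7 lower with library size without chi-miR-148a-3p, and 4 to 18 when single libraries were left out (beside 18.0% to 27.9% of all miRNAs). Of all miRNAs, 23.7% were higher and 8.48% lower with library size only, 9.91% and 11.1% with only the 2 stages compared, 11.6% and 13.6% with chi-miR-148a-3p left out before TMM, and 4.6% and 22.7% with library size without chi-miR-148a-3p, so the members' split moved in the same direction as that of all miRNAs. The count of LL vs. LG was 4 (1 higher, 3 lower), and it was 12 with DESeq2, 7 with limma-voom, 7 with upper quartile scaling (1 higher, 6 lower), 15 with library size only (1 higher, 14 lower), 8 with chi-miR-148a-3p left out before TMM, 8 without a filter, 8 with at least 10 counts in every library, 16 with only the 2 stages compared, and 2 to 11 when single libraries were left out (beside 4.79% to 18.2% of all miRNAs). The share of members called lower in LL was 18.0% with DESeq2, 23.0% with library size only and 24.6% with only the 2 stages compared, beside 8.48%, 12.9% and 10.9% of all miRNAs, against 4.92% and 3.88% in the fit reported. Called in either direction were 11.5% of members with limma-voom, 11.5% with upper quartile scaling, 13.1% with chi-miR-148a-3p left out before TMM, 13.1% without a filter and 16.3% with at least 10 counts in every library, beside 14.4%, 13.1%, 13.1%, 7.67% and 14.7% of all miRNAs. The cause was not tested. The lowest LL vs. LG counts, 2 each, came without LL replicate 1, 2 or 3 or LG replicate 3, where the share of all miRNAs called was also lower, at 4.79%, 5.24%, 9.16% and 5.99% against 12.8%. Summed over the members, LG averaged 7463 CPM and LL 5045 CPM. It was 9061 and 4053 CPM with library size only, 13481 and 7985 CPM with chi-miR-148a-3p left out before TMM, and 4197 and 3218 CPM without the most abundant member, with LG above LL each time. In DP it was 5949 CPM and 4002 CPM without replicate 1.

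With the replicate number as a block (replicate block), 6, 6 and 4 members were called in DP vs. LG, DP vs. LL and LL vs. LG (9.84%, 9.84% and 6.56% of members), beside 31.9%, 24.4% and 12.6% of all miRNAs. Libraries with the same number came from different goats, and their deviations from the stage means correlated at -0.10 to 0.21, so the numbers were not taken to pair them. Of the values of single named members under the alternatives, 488 kept their direction and side of the threshold, 49 kept the direction but missed the threshold, 62 passed it newly and 3 reversed. All 3 were of chi-miR-3958-3p. In DP vs. LG its log2 fold change was 0.96, -0.12 with limma-voom and -1.48 to 1.17 when single libraries were left out, and in DP vs. LL it was 1.13 and -1.25 to 1.52. It was negative only without DP replicate 1 among the fits that left out 1 library. Members at a few CPM rest on few counts per library, which limits what could be detected for them.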

Other observations

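The miRNAs outside the locus with the highest ratios of DP replicate 1 to the mean of the other DP libraries came from a few families. chi-miR-34c-5p had 88.6, 11.3 and 7.63 CPM in the 3 DP libraries and chi-miR-34b-5p 10.8, 0.965 and 1.09 CPM. chi-miR-542-3p had 182, 41.9 and 23.8 CPM, chi-miR-450-5p 240.2, 72.7 and 16.5 CPM and chi-miR-424-5p 44.2, 12.5 and 3.62 CPM. These were the 5 miRNAs other than locus members among the 10 highest ratios of all 696 miRNAs, and 30 of the 50 highest ratios belonged to the locus.

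The 8 other known miRNAs of chromosome 21 that were tested had ratios of DP replicate 1 to the mean of the other DP libraries between 0.0374 and 1.90. The highest was that of chi-miR-211, with 12.7, 7.91 and 5.06 CPM in DP. chi-miR-342-3p, before DLK1 at 64335635 to 64335716, had 577, 865 and 532 CPM in DP (ratio 0.827). chi-miR-345-3p, at 64495202 to 64495302, had 28.5, 31.7 and 24.7 CPM in DP (ratio 1.01), below all libraries of LG (53.1 to 67.9 CPM) and LL (49.4 to 70.4 CPM).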
